A study of Mus musculus with 10 samples.

Results

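The H3K4me3 landscape of normal, fully grown mouse oocytes was described by setting the 3 WT H3K4me3 libraries against the 2 WT input libraries on the autosomes (chromosomes 1 to 19). The rule for the members uses position and label and no measured value: it takes 492344 of the 544879 windows of 5 kb in the series, and 5 of its 10 libraries. The series asks how loss of *Setd1b* in the oocyte alters H3K4me3, and the cKO libraries are not used here. WT oocytes were germinal vesicle (GV) oocytes of 21-day-old females, labelled as strain C57BL6 (C57BL/6OlaHsd in the study's methods) and as genotype *Setd1b* floxed/floxed, *Gdf9*-Cre negative. The methods also count females with *Gdf9*-Cre and an intact *Setd1b* allele as WT, and which kind gave each pool was taken from the labels. Both groups carry the same label and differ in the precipitation. In the H3K4me3 group (replicates 1, 2 and 4), native chromatin of about 200 pooled oocytes was digested with micrococcal nuclease and precipitated with an H3K4me3 antibody (ULI-nChIP-seq). The WT input group (replicates 1 and 4) was sequenced without precipitation. A library averages over its pool, so a low level in every oocyte and a high level in some oocytes cannot be told apart.

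Trimethylation of lysine 4 on histone H3 is placed by SET1 and MLL family methyltransferases, whose CXXC domain proteins bind unmethylated CpGs. In most cells the mark forms narrow peaks at CpG-rich promoters, at genes in use and at many developmental genes that are silent. Growing mouse oocytes are known to add broad domains of the mark away from promoters, in regions that lack DNA methylation, while the transcribed bodies of genes gain DNA methylation.

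To show which sequences the levels belong to, the 250 bases before the RefSeq start of 5 genes are printed (RefSeq, GRCm38.p6), with every CpG in capitals. *Nin*, *Padi6* and *Tbpl2* had start windows above input and *Mcts2* and *Hbb-bs* had start windows below it, and CpG-rich and CpG-poor promoters stand on both sides. The stretches are chr12:70112036-70112285 (*Nin*, minus strand), chr4:140742644-140742893 (*Padi6*, minus), chr2:24096596-24096845 (*Tbpl2*, minus), chr2:152686898-152687147 (*Mcts2*, plus) and chr7:103827929-103828178 (*Hbb-bs*, minus).
Nin: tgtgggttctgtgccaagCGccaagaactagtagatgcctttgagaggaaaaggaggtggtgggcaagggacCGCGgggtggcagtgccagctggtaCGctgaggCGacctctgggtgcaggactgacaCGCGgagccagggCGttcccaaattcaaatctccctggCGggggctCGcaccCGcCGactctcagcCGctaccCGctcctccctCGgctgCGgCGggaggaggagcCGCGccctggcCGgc
Padi6: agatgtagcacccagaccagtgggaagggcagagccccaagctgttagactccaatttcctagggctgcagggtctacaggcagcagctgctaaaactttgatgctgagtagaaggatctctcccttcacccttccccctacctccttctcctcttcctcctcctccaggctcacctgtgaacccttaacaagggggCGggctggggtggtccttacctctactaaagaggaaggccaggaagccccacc
Tbpl2: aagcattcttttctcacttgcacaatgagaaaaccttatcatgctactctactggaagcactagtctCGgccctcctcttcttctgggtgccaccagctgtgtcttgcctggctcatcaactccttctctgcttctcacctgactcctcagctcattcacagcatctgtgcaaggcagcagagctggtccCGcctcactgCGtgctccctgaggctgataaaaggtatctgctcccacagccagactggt
Mcts2: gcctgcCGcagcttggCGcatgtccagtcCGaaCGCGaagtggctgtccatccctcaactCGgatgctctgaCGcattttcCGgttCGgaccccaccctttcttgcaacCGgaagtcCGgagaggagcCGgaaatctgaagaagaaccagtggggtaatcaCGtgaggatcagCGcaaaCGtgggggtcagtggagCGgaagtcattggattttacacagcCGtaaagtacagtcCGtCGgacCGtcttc
Hbb-bs: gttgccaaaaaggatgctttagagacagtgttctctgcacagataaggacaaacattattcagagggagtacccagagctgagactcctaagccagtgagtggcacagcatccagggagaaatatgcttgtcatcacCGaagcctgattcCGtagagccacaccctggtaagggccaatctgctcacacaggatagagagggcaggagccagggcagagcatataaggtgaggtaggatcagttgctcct
The *Nin* promoter held 20 CpGs and that of *Mcts2* also held 20, whereas *Padi6* held 1, *Tbpl2* held 3 and *Hbb-bs* held 2. Nin binds centrosomal microtubules, Padi6 is a structural protein of the oocyte's cytoplasmic lattices, Tbpl2 is the oocyte's own TATA-binding factor, Mcts2 is an imprinted gene expressed from the paternal allele, and Hbb-bs encodes adult beta globin. The *Nin* start window had 13.8, 9.45 and 9.13 RPM (reads in the window for every 1000000 autosomal reads of the library) in H3K4me3 replicates 1, 2 and 4, against 1.83 and 1.20 RPM in input replicates 1 and 4. The *Mcts2* window had 0.243, 0.975 and 0.421 RPM against 2.70 and 2.16 RPM, although both promoters hold as many CpGs. *Padi6* reached 11.1, 7.99 and 7.18 RPM against 2.04 and 1.44 RPM with a single CpG in the stretch shown.

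The libraries held 10261347 to 30902424 autosomal reads for H3K4me3 and 19619218 and 25020434 for input, and the median window held 13 to 53 reads, so a single window rests on few reads in the shallowest H3K4me3 libraries. Across windows the 3 H3K4me3 libraries correlated with each other at r = 0.862 to 0.930 on the log scale, a description over windows, which are not replicates. The markers were checked at their start windows, beside 64.1% higher and 12.7% lower over all windows with the start of a protein-coding gene. Of the oocyte markers 10 of 10 tested, among them *Figla*, *Nobox*, *Ddx4* and *Dazl*, were above input, and *Bmp15* lies on the X chromosome. Of the markers of surrounding cells, 6 of 10 granulosa windows were above input and 3 below, 3 and 2 of 8 for theca and stroma, and 2 and 1 of 7 for blood and endothelium. The markers called lower fell to 0 in each list when either input was left out. Summed over each list, H3K4me3 was 51.3 to 73.8 RPM against 17.5 to 21.2 RPM in input for oocyte markers, and 32.2 to 39.4 against 20.8 to 21.3 RPM for granulosa markers. The sums were 23.3 to 24.7 against 16.8 to 18.2 RPM for theca and stroma, and 15.1 to 17.6 against 12.9 to 15.0 RPM for blood and endothelium. Both directions occurred within a list. Among granulosa genes *Amh*, the anti-Müllerian hormone, was at 4.48 to 6.80 RPM against 1.20 and 1.89 RPM, and *Fshr*, the receptor for follicle-stimulating hormone, at 0.405 to 0.744 RPM against 2.19 and 2.32 RPM. In blood and endothelium *Kdr*, a receptor of vascular growth factor, was at 4.47 to 5.99 RPM against 1.28 and 2.09 RPM, and *Hbb-bs* at 0.0647 to 0.975 RPM against 1.68 and 1.72 RPM. No listed marker was at 0, and the part of other cells in these levels was not tested.

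Across the autosomes, fewer windows lay above input than below it on the RPM scale. Of the 473760 windows with at least 10 reads over the 5 libraries, 109874 (23.2%) were higher in H3K4me3 than in input and 186757 (39.4%) were lower (limma on log2(RPM + 0.5), adjusted p under 0.05), and 177129 were neither. The median window called higher had 4.61 RPM of H3K4me3 against 2.09 RPM in input, and the median window called lower had 0.740 against 2.28 RPM. As a description of the same libraries that made the calls, windows called higher took 61.4%, 47.0% and 51.1% of the reads of H3K4me3 replicates 1, 2 and 4, against 23.4% and 21.9% of the input reads.

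These counts depend on the scale and on both inputs. RPM are shares of a library, so reads gained in some windows lower the rest: the median log2 ratio of all windows was −0.44, and −0.16 and −0.09 with TMM and DESeq2 size factors. Windows called higher made up 37.0% of all calls, against 53.1% and 52.7% under these scalings. Without input replicate 1, 79796 windows were higher and 35009 lower, and without input replicate 4, 70316 were higher and 19174 lower.

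Levels at the top of the range must be read with the making of the windows. The authors left out windows with very high input as mapping artifacts, and the methods name no such limit on H3K4me3. Of the 492558 windows in a full tiling of the autosomes, 214 (0.0434%) were not analysed here, and in the others no WT input library exceeded 5.84 RPM. The top of the input range and the share of reads in its fullest windows were thus limited beforehand. Between the 1st and 99th percentiles of windows, mean H3K4me3 ran from 0.178 to 7.60 RPM and mean input from 0.349 to 2.99 RPM. The fullest 1% of each library's windows held 5.14%, 3.83% and 3.76% of the H3K4me3 reads and 1.66% and 1.73% of the input reads. The means were 4.24 ± 0.777% (SD, n = 3) and 1.69 ± 0.0477% (SD, n = 2), a difference of 2.55 percentage points that is given as a description with no test. Besides the limit on input windows, the authors dropped a further WT H3K4me3 library, not analysed here, because its reads were spread much as in input, so the H3K4me3 libraries kept were chosen by a measure of the same kind. The calls against input in all windows rest on these libraries too. The 4923 windows with the highest mean H3K4me3 ranged from 7.57 to 12.6 RPM. Each library's own fullest 1% also held 4923 windows, of which 1410 (28.6%) were shared by all 3 libraries, and these 1410 were all among the 4923 with the highest mean.

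The deposited annotation column (Feature) lists a gene for part of the windows. Of the 10 highest windows with a Feature, counting 1 for each gene, 6 held the start of a protein-coding gene and 4 lay inside one. The highest of all windows lay inside *Csnk1e*, the casein kinase 1 epsilon gene of the circadian clock (chr15:79440001-79445000), with 15.7, 11.7 and 10.3 RPM in H3K4me3 replicates 1, 2 and 4, and 2.04 and 2.08 RPM in input. The log2 ratio was 2.33 ± 0.35 (SE; limma adjusted p = 2.66e-09). The next of these 10 was inside *Rab3il1*, which encodes an exchange factor for Rab3 proteins (chr19:10015001-10020000), with 12.8, 13.1 and 10.9 RPM against 1.68 and 2.04 RPM. In both windows all H3K4me3 libraries were far above both inputs.

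The 6 with a start were the window listed under *5730494M16Rik* with the starts of *Tpgs2* and *AW554918* (mean 11.8 RPM), the start of *Zfp982* listed under *Gm13152* (11.6 RPM), and those of the synaptic vesicle gene *Syngr3* (11.4 RPM) and the galactosyltransferase gene *B4galt2* (11.4 RPM). The poly(A)-binding protein gene *Pabpc4* (11.3 RPM) and the F-box gene *Fbxl6* (11.3 RPM) were the others. Windows inside *Tsga10ip* (11.4 RPM) and the lipid phosphatase gene *Lpin2* (11.2 RPM) held no start of a protein-coding gene. Input was raised at *Gm13152*, with 3.77 and 2.72 RPM, so its level must be read beside that input, and the reason was not tested. Windows without a Feature, 44.2% of the fullest 1%, were ranked apart. The highest of them was chr17:25435001-25440000, with 15.3, 9.84 and 9.13 RPM against 2.24 and 2.08 RPM, and its mean of 11.43 RPM would have placed it between *Syngr3* and *Tsga10ip*.

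**Figure D1:**
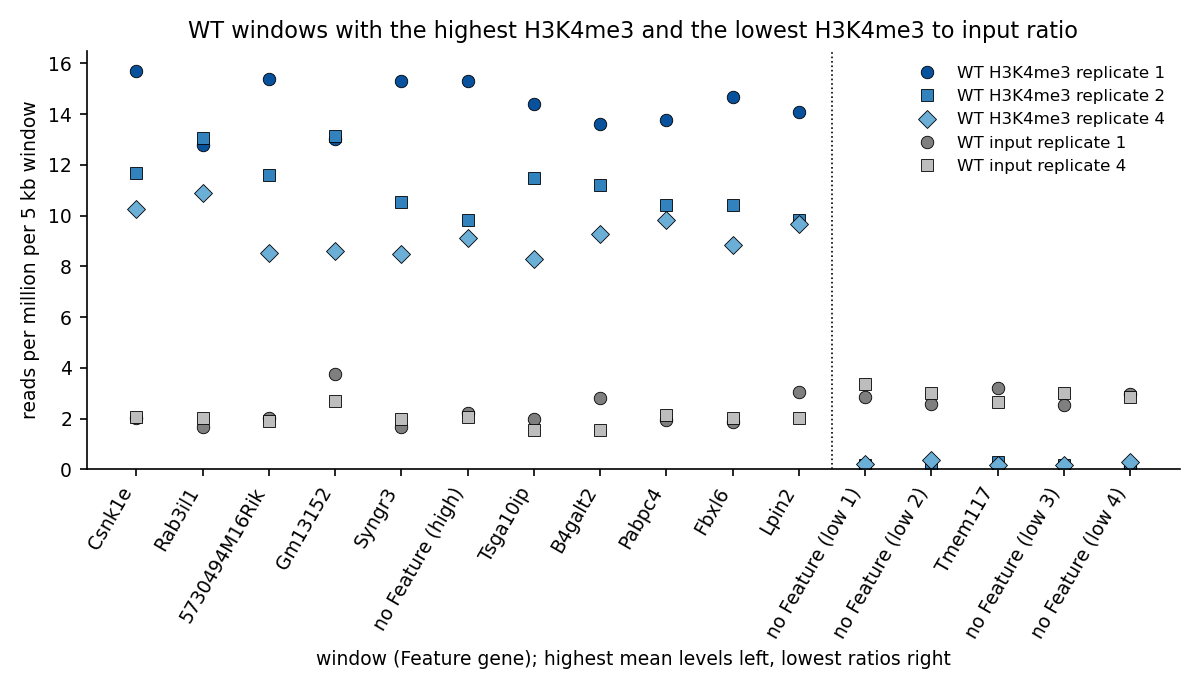
RPM in each of the 5 WT libraries (points) for the 10 windows with the highest mean H3K4me3 among those with a Feature, 1 per gene, the highest window without a Feature, and, right of the dotted line, the 5 windows with the lowest ratio to input. Every H3K4me3 point on the left lies above 8 RPM and every input point below 4 RPM, and on the right the order is turned around.

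By ratio to input, among windows of at least 4 RPM listed under a Feature gene, the first was the start of *Nipsnap1*, a mitochondrial protein gene (chr11:4870001-4875000). It had 9.72, 8.97 and 8.61 RPM in H3K4me3 replicates 1, 2 and 4 against 1.63 and 0.879 RPM in input, a log2 ratio of 2.48 ± 0.26 (SE). *Nin* followed with a log2 ratio of 2.48 ± 0.29, and *Slc4a8* (a bicarbonate transporter), *Anapc16* (a subunit of the anaphase-promoting complex), *Gprc5c* and *Foxo6* (a forkhead factor) lay between 2.37 and 2.43. Over all tested windows, without these limits, the largest log2 ratio was 2.54. At the other end, where neither limit was set, a window without a Feature at chr14:100325001-100330000 had 0, 0.195 and 0.227 RPM against 2.85 and 3.36 RPM, a log2 ratio of −2.51 ± 0.40. The only gene among the 5 lowest was the membrane protein gene *Tmem117*, inside which a window had 0.0810, 0.292 and 0.194 RPM against 3.21 and 2.68 RPM.

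Most of the mark lay away from gene starts, although starts were the class most often marked. Of 18924 tested windows with the start of a protein-coding gene (TSS windows), 64.1% were higher and 12.7% lower, with a median log2 ratio of 0.83 and a median of 4.11 RPM against 2.08 RPM in input. Inside genes 16.7% of 192723 windows were higher and 49.5% lower, and between genes 24.7% of 215812 windows were higher and 33.9% lower. Because the classes differ in size, 48.4% of all windows called higher were intergenic and 29.3% lay inside protein-coding genes. A further 11.2% lay in genes of other kinds, and 11.03% held a TSS (95% exact binomial interval 10.8% to 11.2%). The interval covers counting error only, as if neighbouring windows were independent, and the choice of setting moved the share beyond it.

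The top of the distribution was closer to gene starts. Of the fullest 1% of windows, 25.7% held a TSS, against 3.99% of all windows tested, and 44.2% had no Feature. Without input replicate 4, 49.2% of TSS windows, 10.1% of gene body windows and 15.7% of intergenic windows were higher, and without input replicate 1 the values were 54.0%, 12.0% and 17.4%. The shares called lower moved more. Without input replicates 1 and 4 they were 2.38% and 1.52% of TSS windows, 8.11% and 5.03% of gene body windows, and 7.41% and 3.50% of intergenic windows, and with TMM scaling 7.98%, 33.6% and 21.9%.

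Around the 20511 starts of protein-coding genes with a value, mean H3K4me3 in the start window was 4.83, 3.82 and 3.78 RPM in replicates 1, 2 and 4, against 2.12 and 1.99 RPM in input. In the window 5 kb downstream it was already 2.59, 2.49 and 2.41 RPM, and 5 kb upstream it was 3.21, 2.85 and 2.92 RPM. In all 3 libraries the level was thus higher 5 kb before the start than 5 kb behind it.
In genes of at least 100 kb the fall continued into the gene. Their start windows had 5.42, 4.09 and 4.12 RPM, and windows 100 kb downstream had 1.50, 1.79 and 1.64 RPM, below the 2.23 and 2.18 RPM of input. This order belongs to the RPM scale. TMM or DESeq2 size factors raise H3K4me3 against input and would remove most of the deficit or turn it around. At the same distance upstream, H3K4me3 was 2.49, 2.38 and 2.39 RPM, above input at 2.16 and 2.12 RPM.

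**Figure D2:**
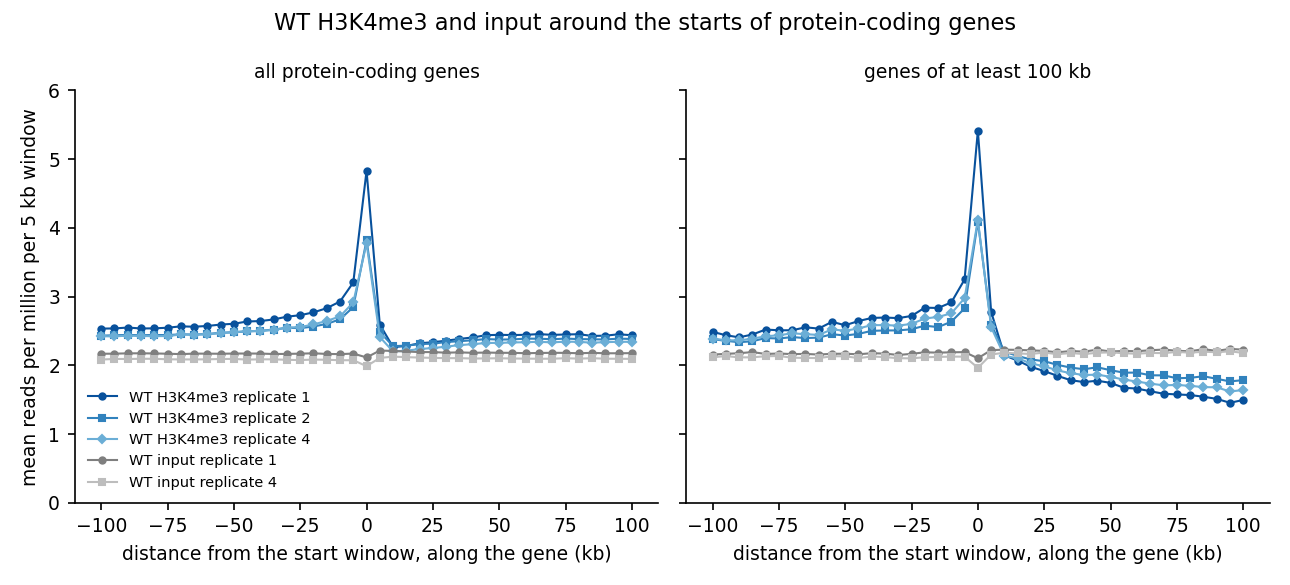
Mean RPM per 5 kb window in each WT library by distance from the start window (kb, negative upstream), for all protein-coding genes (left) and those of at least 100 kb (right). H3K4me3 peaks in the start window in all 3 libraries and, in the long genes, falls below both inputs within the gene on the RPM scale. TMM or DESeq2 size factors would remove most of that deficit or turn it around.

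Mean H3K4me3 was higher in each decile of CpG density than in the one before, in all 3 libraries. From the lowest to the highest decile of windows by CpGs per kb (medians of 3 and 17.8), it went from 1.36, 1.56 and 1.51 RPM to 3.46, 2.97 and 2.93 RPM in replicates 1, 2 and 4. Input stayed between 1.94 and 2.23 RPM in both libraries over all deciles. The share of windows called higher went from 10.2% to 44.4%, and without TSS windows from 10.2% to 32.1%. With input replicate 1 left out the shares were 5.65% and 36.6%, and with input replicate 4 left out 5.22% and 32.6%.

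Median CpG density was 9 CpGs per kb in all windows called higher, 7.6 in those between genes, 22.6 in those with a TSS, and 6.6 in windows called lower. Of 32851 promoters in RefSeq, 31379 lay on the autosomal windows, and 92.4% of these hold at least 1 CG, which reads the same on both strands, in the 250 bases before the start. Windows whose promoter held no CG in this stretch were higher in 21.8% of 2046 cases, and those with 21 or more in 86.4% of 4181 cases. A window with several promoters was classed by the promoter with most CGs. The printed promoter of *Padi6*, above input, holds 1 CG, and windows with 1 or 2 were higher in 28.8% of 5486 cases. That of *Mcts2*, below input, holds 20, and windows with 11 to 20 were higher in 80.0% of 4529 cases.

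**Figure D3:**
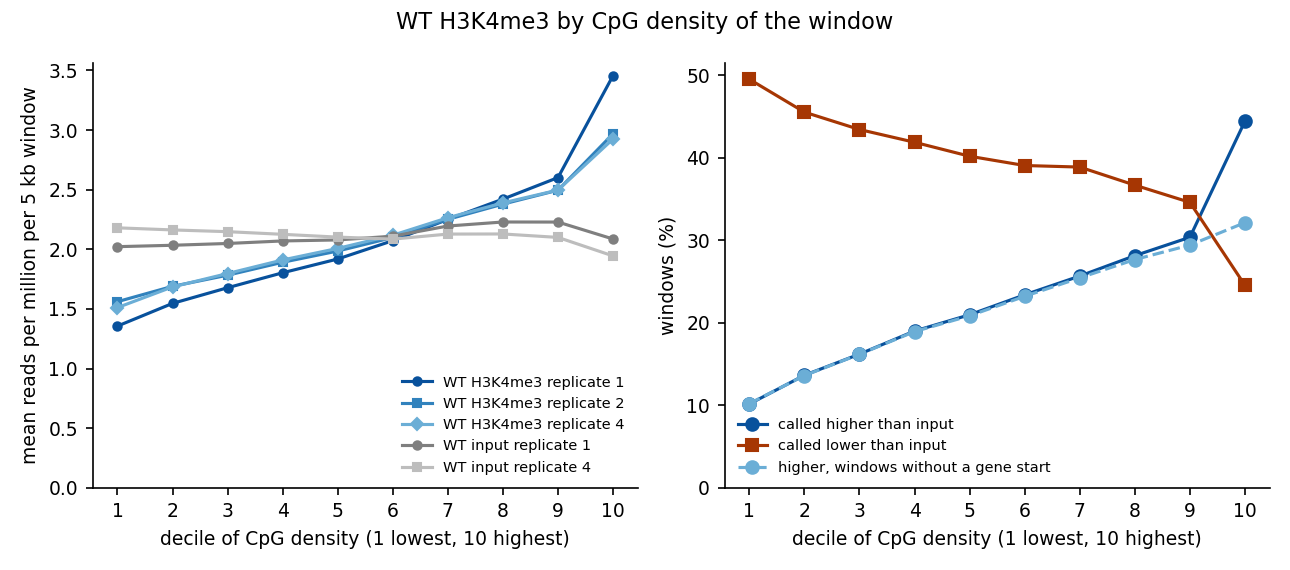
Left, mean RPM per 5 kb window in each WT library against the decile of CpG density of the window (1 lowest, 10 highest). Right, the share of windows (%) called higher, called lower, and called higher among windows without a protein-coding gene start. H3K4me3 goes up in all 3 libraries while both inputs stay near 2 RPM.

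Many of the windows called higher were adjacent. They formed 44923 runs of adjacent windows, of which 21478 were single windows, and 38.2% of the windows lay in runs of at least 5. This share was 23.8% without input replicate 1, 18.3% without input replicate 4 and 13.4% for windows higher by at least 2-fold. The longest run spanned 36 windows (180 kb, chr1:39725001-39905000). It held the starts of *Gm3646* and of *Map4k4*, a kinase of the stress pathway, in windows 80 kb and 175 kb from its start. The window after the run, at 180 kb, had 0.486, 1.36 and 1.20 RPM in H3K4me3 replicates 1, 2 and 4 and was not called. Over this run the mean level was 6.51, 4.42 and 5.33 RPM in H3K4me3 replicates 1, 2 and 4, against 2.36 and 2.06 RPM in input. The next were 160 kb on chromosome 5 with *Tmem156*, *Klhl5* and the ciliary transport gene *Wdr19*, 150 kb on chromosome 8 without a protein-coding gene, and 150 kb on chromosome 14 with the gap junction gene *Gjb6* and *Gm4491*. The fifth, 140 kb on chromosome 4, again held no protein-coding gene. Leaving out input replicate 4 shortened the longest run to 85 kb, and leaving out input replicate 1 to 125 kb.

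**Figure D4:**
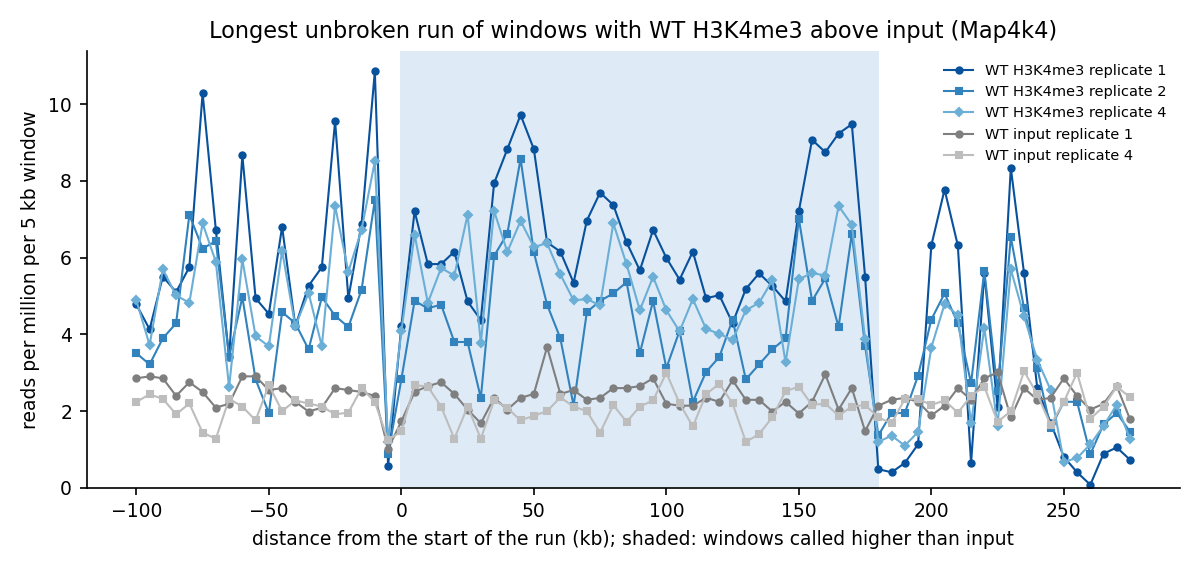
RPM per 5 kb window in each WT library along the longest run of windows called higher, which ends in a gene start window, and 100 kb on each side (kb from the start of the run, shaded over its 180 kb). The starts of *Gm3646* and *Map4k4* lie in the run. H3K4me3 replicates 1 and 4 lie above both inputs in all 36 shaded windows, and replicate 2 in all but 1.

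Runs of windows called lower were longer still. The longest run of windows called lower covered 575 kb on chromosome 8 with *Inpp4b*, a phosphoinositide phosphatase gene, at 0.220, 0.776 and 0.522 RPM against 2.03 and 2.29 RPM in input. The longest run of lower windows was 80 kb without input replicate 1, 40 kb without input replicate 4 and 270 kb without H3K4me3 replicate 4. It was 260 kb to 360 kb with TMM scaling, DESeq2 size factors, edgeR, a pseudocount of 0.1, no filter on low reads, a mean of at least 1 RPM or a 2-fold minimum. Without either input it was thus shorter than the longest run of higher windows.

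Summed over all their windows, the Feature genes with most H3K4me3 were the longest. *Gm20388*, a gene model of 878 windows on chromosome 8 that spans many other genes, led with 2188 RPM against 1951 RPM in input. The fibroblast growth factor receptor gene *Fgfr2* (593 windows in the deposited annotation) followed with 1134 against 1357 RPM, and then the adhesion and synapse genes *Ptprd*, *Csmd1*, *Lrp1b*, *Nrxn3* and *Odz2*, with *Macrod2* and *Ctnna3* among them. These sums follow length: *Fgfr2* had 1.91 RPM per window, below its 2.29 RPM of input. Of the genes named here *Gm20388*, *Csmd1*, *Odz2* and *Ctnna3* had a sum above that of input on the RPM scale, while the others did not. That split belongs to this scale: with TMM or DESeq2 size factors the mean sums of the others, *Fgfr2* among them, would also lie above input.

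The mean per window, a measure chosen after the sums were seen and limited to genes of at least 10 windows, put other genes first. *Entpd7*, a nucleotidase gene (10 windows), had 7.79, 6.15 and 5.81 RPM per window in H3K4me3 replicates 1, 2 and 4 against 2.54 and 2.10 RPM. *Wnt3*, the ligand that starts the primitive streak, had 7.15, 5.54 and 5.77 against 2.39 and 1.91 RPM. All 10 windows of each were called higher, as were all 13 of *Lrrn2* (mean 5.70 RPM), all 15 of *Colq* (5.56 RPM) and all 11 of the glycine transporter gene *Slc6a5* (5.54 RPM). Toward the low end, *Dbc1* had 0.243, 0.622 and 0.497 RPM per window against 1.91 and 2.41 RPM, and 38 of its 39 windows were lower and none higher.

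Of 24722 Feature genes, 64.4% had at least 1 window called higher, and of the 5243 genes with at least 10 windows, 14 had every window higher and 543 had none. The 14 became 2 without input replicate 1, 0 without input replicate 4, 5 without H3K4me3 replicate 1 and 8 without H3K4me3 replicate 4, and 37 with TMM scaling. The 543 became 821 and 972 without input replicates 1 and 4.

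Chromosome 19 was the most marked, with 32.2% of its windows higher, and chromosome 14 the least, with 17.4%. Mean H3K4me3 was 2.72, 2.64 and 2.59 RPM per window on chromosome 19 and 1.75, 1.74 and 1.76 RPM on chromosome 14, so the order held in each library. CpG density was 9.58 per kb and 7.74 per kb, and 5.70% and 3.34% of their windows held a TSS. The part of these in the difference was not tested. The 2 shares were 24.6% and 12.1% without input replicate 1 and 20.8% and 10.9% without input replicate 4.

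Genes of the oocyte programme carried the mark at their starts. In all lists below, a member counts as higher or lower by its TSS window in the fit over all windows, beside the 64.1% higher, 12.7% lower and median of 0.83 over all TSS windows, of which the lower share rests on both inputs as given above. Of the zona pellucida and oocyte-secreted factors, 10 of 10 tested were higher, with a median log2 ratio of 1.57. Of the subcortical maternal complex and oocyte *Nlrp* genes, 9 of 10 were higher, with a median of 1.74. Oocyte transcription factors were higher in 9 of 9 tested, with a median of 1.31. *Obox1* and *Obox2* share a window with too few reads to test.

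*Zp2*, which encodes a sperm-binding coat protein, had 11.7, 6.72 and 5.40 RPM in H3K4me3 replicates 1, 2 and 4 against 2.34 and 1.28 RPM in input, and *Zp3* 5.99, 4.97 and 4.50 against 3.01 and 1.24 RPM. *Gdf9*, the growth factor through which oocytes direct granulosa cells, stood at a mean of 8.47 ± 1.40 RPM (SD, n = 3) against 2.08 RPM, in a window it shares with *Uqcrq*. The neighbours *Oosp1*, *Oosp2* and *Oosp3* reached means of 7.44, 5.82 and 8.06 RPM with only 4.4 to 6.8 CpGs per kb, as did *Tbpl2* with 6.54 RPM at 4.0 CpGs per kb. At the CpG-rich end, the window of *Foxo3*, which holds follicles dormant, held 71.4 CpGs per kb and 11.6, 7.21 and 5.27 RPM against 1.43 and 1.36 RPM.

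The genes of meiosis followed. Of the genes for meiotic arrest and resumption 15 of 16 were higher, with a median log2 ratio of 1.25. The start of *Mos*, the kinase that holds the mature egg in metaphase, had 10.8, 7.11 and 8.96 RPM against 2.24 and 1.60 RPM, and that of *Bub1b*, a spindle checkpoint kinase, a mean of 8.03 RPM against 1.78 RPM. *Fbxo43*, an inhibitor of the anaphase-promoting complex, was at a mean of 2.27 RPM against 2.17 RPM and did not pass.

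Meiotic prophase genes, which serve chromosome pairing, recombination and cohesion, were higher in 16 of 19, with a median of 1.10. *Sycp3* (9.80, 6.43 and 6.02 RPM against 1.94 and 1.40 RPM) and *Meiob* (mean 7.75 RPM against 1.62 RPM) had the largest ratios. *Spo11*, which cuts DNA to start recombination, had 1.21, 1.27 and 2.04 RPM against 2.70 and 2.32 RPM and did not pass, and *Syce1* and *Stag3* did not pass either.
Of the genes for storage and decay of maternal mRNA, 9 of 11 were higher (median 1.50), with the largest ratios at *Cnot6l*, a deadenylase, at a mean of 8.88 RPM, and *Ybx2*, an mRNA packaging protein, at 8.59 RPM. *Btg4* and *Cpeb1* did not pass at the start of the gene model, with means of 1.97 and 3.01 RPM. Of the 3 transcript start windows of *Btg4*, 2 were higher, 1 of them at 6.30 RPM, and 0 were lower. Of the 6 of *Cpeb1*, 1 was higher, at 4.99 RPM, and 2 were lower. Genes counted as higher can have lower starts too: of the 4 transcript start windows of *Pabpc1l*, 1 was higher and 3 were lower.

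**Figure D5:**
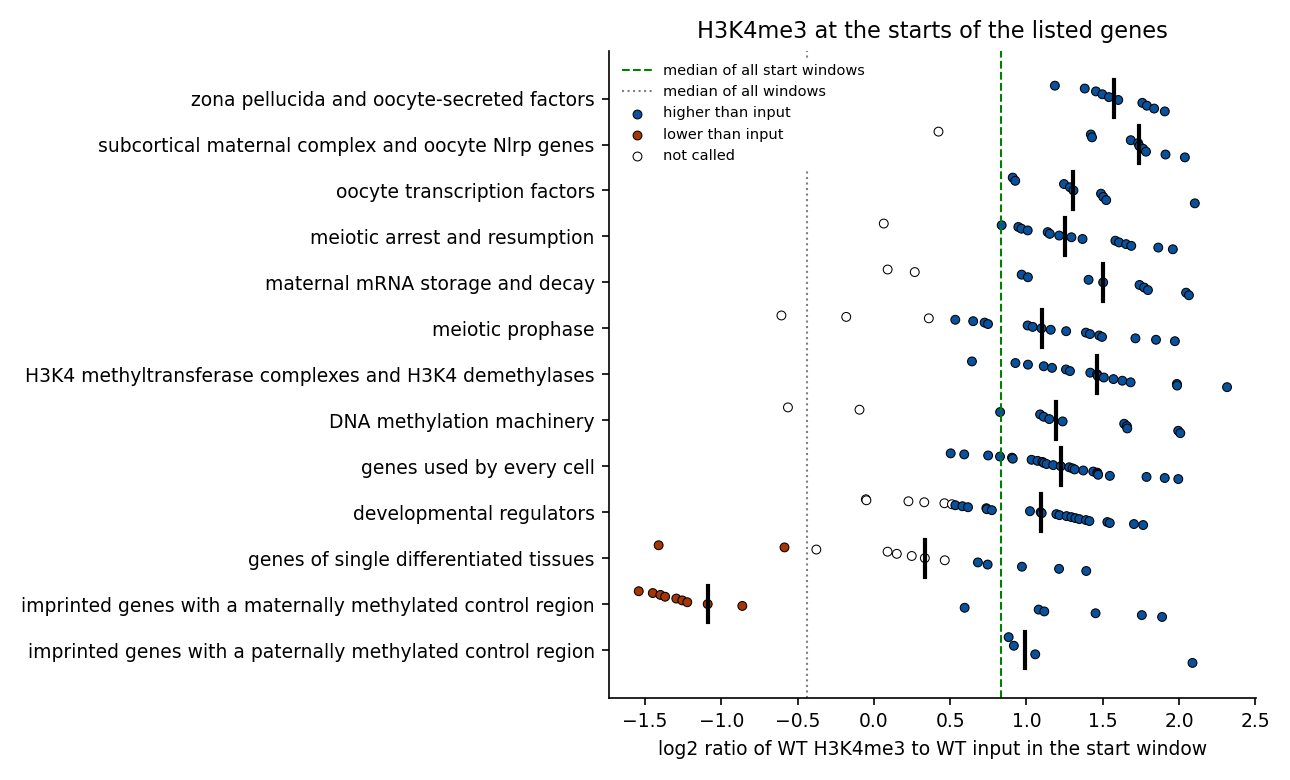
Log2 ratio of WT H3K4me3 to WT input (limma fit) in the start window of every tested member of each list, coloured by call, with the median of the list as a black bar. The dashed and dotted lines are the medians of all start windows (0.83) and of all windows (−0.44). Every list of oocyte and meiotic genes has its median right of the dashed line, and the maternally methylated imprinted genes lie on both sides of 0.

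The genes of the H3K4 methyltransferase complexes and the H3K4 demethylases carried H3K4me3 themselves, in 17 of 17 start windows, with a median log2 ratio of 1.46. *Setd1b* was the highest by ratio, with 10.4, 7.70 and 6.28 RPM in H3K4me3 replicates 1, 2 and 4 against 1.73 and 0.799 RPM in input, a log2 ratio of 2.31 ± 0.24 (limma adjusted p = 8.44e-17). By level *Men1*, which encodes the menin subunit of MLL complexes, was highest, with 13.2, 8.48 and 8.19 RPM against 2.50 and 1.72 RPM. *Cxxc1*, which brings SET1 complexes to unmethylated CpGs, was lowest, at a mean of 3.29 ± 0.32 RPM (SD, n = 3) against 1.95 RPM. The demethylase genes *Kdm5a*, *Kdm5b*, *Kdm1a* and *Kdm1b* lay between 1.01 and 1.51 on the log2 scale.

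Of the DNA methylation genes, 10 of 12 were higher (median 1.19). The start of *Dnmt3l*, the cofactor of the oocyte's methyltransferase, shares its window with *Aire* and had a mean of 8.87 RPM against 1.98 RPM. *Dnmt3a* had 5.67, 3.02 and 2.36 RPM against 1.63 and 1.84 RPM. *Dnmt3b* had 1.38, 1.46 and 1.10 RPM against 2.40 and 1.96 RPM and did not pass, and neither did *Tet1*, at a mean of 1.87 against 1.98 RPM, though the start of another of its transcripts was higher (4.76 RPM).

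Genes that every cell uses were higher in 25 of 25, with a median log2 ratio of 1.23, from *Gapdh* (0.50) to *Ywhaz* (2.00; 13.3, 8.28 and 8.15 RPM against 2.14 and 1.96 RPM). Developmental regulators that are not known to be needed in the oocyte were higher in 21 of 27, with a median of 1.09. *Gata6*, a factor of the primitive endoderm, had 7.86, 7.21 and 5.92 RPM against 2.09 and 1.52 RPM and lay in a run of 90 kb. *Neurog1*, which starts sensory neuron fate, had 7.94, 4.68 and 6.86 against 2.14 and 1.04 RPM, while *Otx2*, *Nkx2-5*, *Tbx5*, *Pax7*, *Gata4* and *Wnt1* did not pass.

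Inside the bodies of the developmental regulators, 47% of 100 windows were higher and 21% lower, beside 16.7% and 49.5% of all gene body windows. The genes of single tissues had 40.4% of 94 body windows higher and 16.0% lower. In the genes that every cell uses 16.4% of 61 body windows were higher and 59.0% lower, and in the genes for arrest and resumption 17.4% and 64.3% of 115. The difference between the lists was not tested.

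Of the genes of single differentiated tissues, 5 of 13 were higher and 2 lower, with a median of 0.33, beside 64.1% and 12.7% of all TSS windows. The growth hormone gene *Gh* had a mean of 5.66 RPM against 1.84 RPM in input, whereas the insulin gene *Ins2* had 0.405, 0.975 and 1.07 RPM against 2.80 and 3.00 RPM, although the start of another of its transcripts was higher (5.75 RPM). *Apoa1* was also lower, and neither of these passed when input replicate 1 or 4 was left out.

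Large gene families stood at both ends. Olfactory receptor genes, which are CpG-poor (median 3.8 CpGs per kb) and lie in clusters of like copies, were higher in 125 and lower in 602 of 1126 tested, with a median log2 ratio of −0.86. Vomeronasal receptors, the pheromone receptors, were higher in 31 and lower in 132 of 286 (−0.68), and keratin-associated proteins, which harden hair, in 12 and 22 of 57 (−0.42). Reads that fit several copies in these families may be lost to the authors' filter on mapping quality, so single members are uncertain. Zinc finger genes named *Zfp* went the other way, with 287 higher and 10 lower of 375 and a median of 1.01.

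The balance within the families depended on the scale and on the inputs. With TMM scaling, 189 olfactory receptors were higher and 445 lower, and 16 keratin-associated genes were higher and 12 lower. Without input replicate 1, 71 olfactory receptors were higher and 166 lower, and without input replicate 4, 72 and 82. The vomeronasal receptors had 19 higher and 41 lower without input replicate 1, and 20 and 28 without input replicate 4. For the keratin-associated genes the balance turned around, with 8 higher and 3 lower without input replicate 1, and 5 and 1 without input replicate 4.

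The imprinted genes split by the transcript start. Genes whose control region is methylated on the maternal allele, and so receives DNA methylation in the growing oocyte, were higher in 6 and lower in 9 of 15, with a median log2 ratio of −1.09. Lower at the start of the gene model were *Snrpn*, *Peg3*, *Zrsr1*, *Nnat*, *Kcnq1ot1*, *Airn*, *Nespas*, *Mcts2* and *Cdh15*, at means of 0.546 to 0.946 RPM. *Kcnq1ot1*, the long RNA that silences its imprinted domain, had 0.648, 0.585 and 0.615 RPM against 2.34 and 2.76 RPM, and *Peg3*, a zinc finger gene expressed from the paternal allele, 0.162, 1.17 and 0.324 RPM against 1.78 and 2.24 RPM. Their windows held up to 53.6 CpGs per kb (*Nespas*), so these starts were not all poor in CpGs. *Nespas* and *Airn* have another transcript start each: that of *Nespas* was higher, with 10.4, 8.38 and 6.18 RPM against 2.19 and 1.76 RPM, and that of *Airn* had a mean of 2.15 RPM against 2.63 RPM and did not pass.

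The genes higher at the start of the gene model were *Mest*, *Peg10*, *Plagl1*, *Impact*, *Grb10* and *Inpp5f*. All but *Peg10* have several transcript starts in the GENCODE M21 annotation, and in each of these the most upstream start window was higher and the windows farthest in were lower. In *Plagl1* the upstream window had 7.53, 4.87 and 5.02 RPM and the next, at chr10:13090001-13095000 with 28.6 CpGs per kb, had 0.324, 0.780 and 0.162 RPM, against 2.37 RPM in input. In *Mest* the first start window had 3.97, 6.82 and 4.14 RPM, and the one at chr6:30735001-30740000, with 37.0 CpGs per kb, had 0.486, 0.780 and 0.485 RPM against 1.81 RPM in input. In *Grb10* the values were 4.70, 4.58 and 3.75 RPM at the first start and 0.0810, 0.585 and 0.906 RPM at the next, 10 kb away.

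Over all transcript starts of these 15 genes, 28 windows were lower, 8 higher and 1 neither, beside 33.2% lower and 40.8% higher of all 40507 tested windows with a transcript start of a protein-coding gene. In the 9 lower starts named above, every H3K4me3 library was below both inputs, except at *Nnat*, where H3K4me3 replicate 2 (1.66 RPM) was just above input replicate 4 (1.60 RPM). Lower calls fell to 0 and 1 of the 15 without input replicates 1 and 4, and to 3 and 4 of the transcript windows, and with TMM scaling they were 8 and 25.
All 4 genes whose control region is methylated on the paternal allele were higher, with a median of 0.99, and 3 of 4 without input replicate 4. *Meg3*, a maternally expressed long RNA, had 6.97, 7.80 and 6.28 RPM against 1.33 and 1.20 RPM in a run of 60 kb, and *H19*, another, 5.10, 3.31 and 4.69 against 2.04 and 1.60 RPM.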

How the data were processed

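The 3 WT H3K4me3 and 2 WT input libraries were ULI-nChIP-seq libraries of about 200 pooled oocytes each. Reads were trimmed (Trim Galore 0.4.2) and aligned to GRCm38 (Bowtie2 2.2.9), per the submitters' processing notes, and quantified in SeqMonk over 5 kb windows. Alignments of low mapping quality were removed, per the study's methods. For H3K4me3 the authors deposited a linear score, an enrichment-normalised RPKM value. For input the authors deposited a signal, reads per window scaled to library size. Both scales were undone here: 100% of the values fell within 0.02 of a whole read, and 0 value columns were unmapped. Duplicate reads cannot be told from independent fragments, so intervals cover counting error only.

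The recovered reads were scaled to 1000000 autosomal reads per library (RPM). Windows with at least 10 reads over the 5 libraries were tested with limma 3.58.1 (trend, R 4.3.3) on log2(RPM + 0.5), with no block and Benjamini-Hochberg adjustment over all windows, at an adjusted p under 0.05. P-values measure the spread between these libraries. An exact test planned for the reads in the fullest windows is not given, because the authors had kept libraries by a like measure. On simulated data of the same 473760 windows, 49 of 50 windows raised 4-fold and 17 of 50 raised 2-fold were called. So were 36 of 50 at 0.25 and 4 of 50 at 0.5 of the level, and 4 of 473560 unchanged windows. The simulated spread between libraries was assumed and not estimated from these libraries. Far fewer windows were changed there than were called here, so these rates do not carry over to the calls. Alternatives used edgeR 4.0.16, DESeq2 1.42.0 size factors, TMM, other pseudocounts and filters, a replicate block, and each library left out. Scripts used Python 3.11.15, pandas 2.3.3, numpy 2.4.6 and scipy 1.17.1.

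Starts came from GENCODE M21, and Feature genes from the deposited annotation. Named were the 10 highest windows and the 10 with the largest ratio (at least 4 RPM), each 1 per Feature gene, the highest window without a Feature, the 5 lowest ratios, the 10 Feature genes with the largest sums, the 5 longest runs and members of the gene lists. The members and lists were chosen with earlier results of these data known. Some named genes are not reported here.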

Additional observations from a re-analysis of the deposited data

How the results depend on the processing

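The 109874 windows called higher stayed within 1.5 times under TMM (139768), DESeq2 size factors (138090), edgeR (146022) and the other pseudocounts and filters, but only 51872 were higher by at least 2-fold, and leaving out 1 library gave 70316 to 117005. The 186757 windows called lower fell to 123305 with TMM, 124166 with DESeq2 size factors and 115458 with no filter on low reads, and ranged from 19174 to 217047 with 1 library left out. The lowest counts came without input replicate 4, and 35009 were lower without input replicate 1, which leaves 1 input assumed to vary like the H3K4me3 libraries. The share of higher windows that hold a TSS (11.03%) was 12.1% without a trend, 9.60% with TMM, 9.64% with DESeq2 size factors, 9.30% with edgeR, 11.5% with no filter and 15.0% at 2-fold. It was 15.1% counting the start of every transcript, 17.5% counting genes of every biotype, and 10.6% to 13.2% with 1 library left out. Of 188 list genes tested, 156 were called higher, 148 to 157 with 1 H3K4me3 library left out, and fewer without either input. Over all TSS windows 64.1% were higher, 59.6% to 65.3% with 1 H3K4me3 library left out, and again fewer without either input. The difference in the fullest 1% of windows was 2.10 to 2.79 points with 1 library left out. Of 241 single windows and genes, 173 kept their call under all 15 settings and 0 reversed.

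With the replicate number as a block, 118114 windows were higher and 214868 lower, and 10.5% of the higher ones held a TSS. Same-numbered libraries deviated together only weakly (r = 0.077 for number 1 and 0.063 for number 4, over windows), so the paired fit rests on a shared number alone.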
